A study of Homo sapiens with 8 samples.

Results

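The annexin family was followed in HCT116 cells after heat shock as the 10 genes ANXA1, ANXA2, ANXA3, ANXA4, ANXA5, ANXA6, ANXA7, ANXA10, ANXA11 and ANXA13, taken by gene symbol, out of 55075 genes in the deposited count tables. HCT116 is a human colon cancer line grown as an epithelial sheet, and it was compared with a derived line that carries a knockout (KO) of FBXW7, the subunit of a ubiquitin ligase that picks out its substrates. The 4 groups were KO recovery and wild-type (WT) recovery, heated at 42 °C for 1 h and then kept at 37 °C for 2 h, and KO heat shock and WT heat shock, taken at the end of the heating. Each group held 2 libraries of 50-base single reads, named biological replicates by the series' design text, and every group had been heated. Cells never heated were not analysed here, and nothing in the sources used here says whether the KO line is 1 clone or whether replicates came from separate cultures. The p-values therefore measure only the spread between these libraries.

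Annexins are cytosolic proteins that bind acidic phospholipids when calcium rises, through a core of repeated domains that sits on the membrane and a variable amino-terminal tail that binds partners. In epithelial cells they take part in sealing of torn plasma membrane, in endocytosis and exocytosis and in linking actin to membranes. Several act in pairs with S100 proteins, small calcium sensors, and the complex of ANXA2 with S100A10 is known for bringing plasminogen to its activators at the cell surface.

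Library totals ran from 24531569 to 27187797 counts in KO recovery, 26102649 to 34387618 in KO heat shock, 15507896 to 15654696 in WT recovery and 19979779 to 20248480 in WT heat shock. Levels are given as CPM, counts scaled to a common library size after TMM correction, and changes as log2 fold changes ± SE from edgeR's quasi-likelihood test on 17471 genes, with Benjamini-Hochberg adjusted p-values and a call at an adjusted p under 0.05. FBXW7 transcripts were at 14.003 and 13.8 CPM in KO recovery and 23.0 and 21.7 CPM in WT recovery, and at 17.4 and 14.9 CPM in KO heat shock and 33.5 and 31.4 CPM in WT heat shock. The gene was lower in KO at both times (-0.68 ± 0.11, adjusted p = 8.0e-05 at recovery and -1.01 ± 0.10, adjusted p = 1.9e-06 at heat shock), and counts over a whole gene do not show a deleted part. Of 11 colon epithelium markers, 10 passed the filter on low counts, with EPCAM at group means of 250.4 to 338.5 CPM, while the transcription factor CDX1 was at or near 0. All 8 libraries held summed CPM of 2115 to 3183 for the colon markers, 11.7 to 15.1 for 11 fibroblast markers and 16.5 to 30.2 for 7 immune markers, of which CD68 made up most, and at most 1.43 for erythroid and 0.461 for endothelial markers.

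One property of the libraries touches the changes below. Protein-coding genes whose longest transcript had a GC fraction under 0.42 had a median log2 change of -0.37 in KO recovery over heat shock and 0.29 in WT recovery over heat shock, whereas those over 0.52 had medians of 0.22 in KO and -0.29 in WT. ANXA1, ANXA3, ANXA4 and ANXA10 have transcripts under 0.42, ANXA2, ANXA5 and ANXA7 lie between 0.42 and 0.47, and ANXA6 and ANXA11 lie over 0.52. Values after fitting GC and transcript length as offsets are given for the annexins where they alter a call or a direction and for partner genes where they end a call, and the part of base composition in the results was otherwise not tested.

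ANXA2 and ANXA5 carried the most reads per length of exon. Averaged over the 8 libraries, ANXA2 stood at 123 CPM per kb of exon, ANXA5, which binds phosphatidylserine on damaged or dying cells, at 97.6, and ANXA1, a glucocorticoid-induced regulator of inflammation, at 74.3. ANXA3 followed at 42.2, ANXA7 at 33.3, ANXA6 at 23.5, ANXA10 at 23.2, ANXA11 at 21.1 and ANXA4 at 6.73 CPM per kb. Dividing by the longest transcript in place of all exons kept ANXA2 first (308) and ANXA4 last among the 9 (16.8), and set ANXA6 (49.2) above ANXA7 (38.8).

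The order differed between groups. In KO recovery, ANXA2 had 145 ± 26.6 CPM per kb (SD, n = 2) and ANXA5 96.4 ± 6.58, and in KO heat shock ANXA5 led with 112 ± 1.48 over ANXA2 with 70.8 ± 1.17. In WT recovery, ANXA1 at 109 ± 6.79 and ANXA2 at 107 ± 2.80 could not be separated beyond their SD, with ANXA5 next at 97.3 ± 3.19. Per longest transcript, however, ANXA2 stood at 268 ± 7.01 and ANXA1 at 224 ± 14.02 in WT recovery. In WT heat shock ANXA2 led with 169 ± 16.03, ahead of ANXA5 at 85.1 ± 7.42. Neighbours whose means lay within their SD were ANXA10 and ANXA3 in KO recovery, ANXA11 and ANXA6 in KO heat shock, and ANXA7 and ANXA3 in WT heat shock. ANXA10 had 45.3 ± 3.59 in KO recovery and 38.7 ± 0.767 in KO heat shock, against 4.80 ± 0.199 in WT recovery and 3.87 ± 0.325 in WT heat shock, where it was last of the 9 both times.

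ANXA13, an annexin known from intestinal epithelium, was close to absent. It had 1 and 0 counts in KO recovery, 0 and 0 in KO heat shock, 0 and 1 in WT recovery and 0 and 0 in WT heat shock. A count of 0 allows a level of up to 3 counts, or 0.0852 to 0.182 CPM depending on the library, for counting error only, and the gene did not pass the filter. The other 9 genes were tested.

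**Figure D1:**
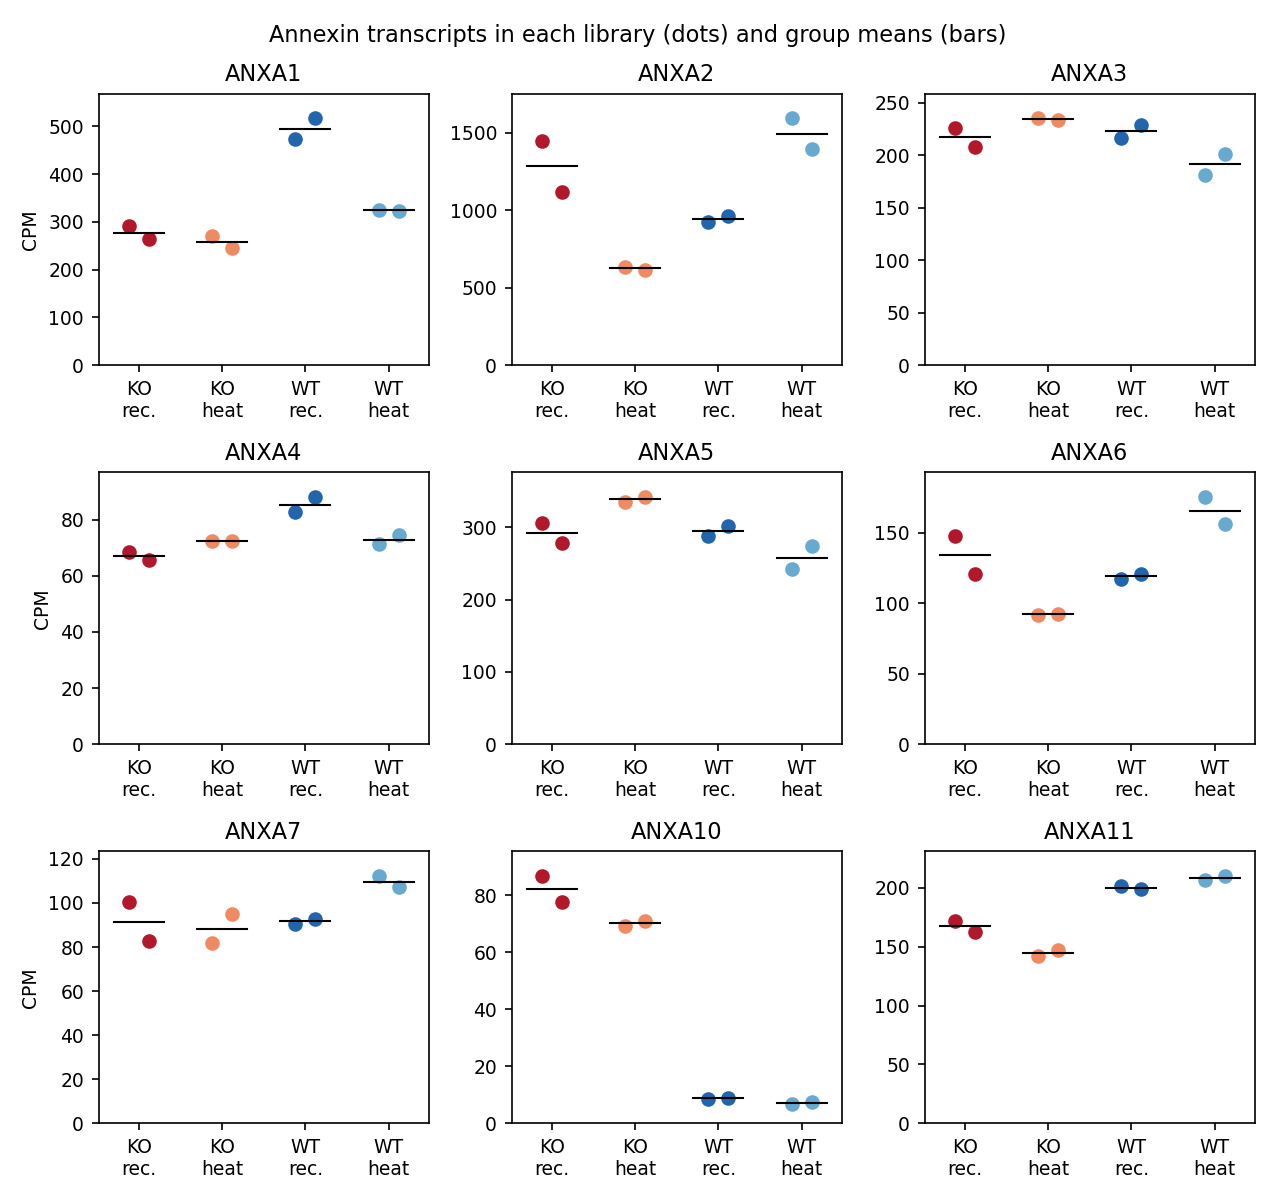
CPM of the 9 tested annexins in each of the 8 libraries (dots) with group means (bars), each panel on its own linear axis from 0. ANXA2 and ANXA6 lie higher in recovery than in heat shock in KO cells and lower in recovery than in heat shock in WT cells, and ANXA10 lies between 69.1 and 86.7 CPM in KO cells and between 6.60 and 8.95 CPM in WT cells.

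The first question was how annexin transcripts stood after recovery relative to the end of heat shock in each line, and whether the lines differed in this response. In KO cells 2 of the 9 tested annexins, ANXA2 and ANXA6, rose and 0 fell, beside 20.6% of all genes called higher and 21.1% called lower. In WT cells ANXA1 and ANXA4 rose and ANXA2 and ANXA6 fell, so 2 rose and 2 fell, beside 24.8% and 26.0% of all genes. The difference of the responses, KO minus WT, was called higher for ANXA2 and ANXA6 and lower for ANXA1, ANXA3, ANXA4 and ANXA5, which is 2 and 4 of 9 beside 28.5% and 27.8% of all genes. The median over the 9 was 0.10 in KO, 0.19 in WT and -0.09 for the difference, against -0.02, 0.01 and -0.03 over all genes tested. The 2 recovery libraries lay wholly above or wholly below the 2 heat shock libraries for 7 of the 9 annexins in KO and 9 of 9 in WT, beside 74.1% and 75.4% of all genes. All 5 comparisons in this text draw on the same 8 libraries.

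ANXA2 changed in opposite directions in the lines and had the largest difference of responses among the 9. It had 1450 and 1118 CPM in KO recovery, against 632 and 618 CPM in KO heat shock. In WT cells it had 927 and 962 CPM in recovery, against 1595 and 1395 CPM in heat shock. In neither line did the groups overlap. The log2 change was 1.03 ± 0.11 in KO, a 2.04-fold rise (adjusted p = 8.6e-07), and -0.66 ± 0.11 in WT (adjusted p = 6.8e-05). The difference of the responses, 1.69 ± 0.16 (adjusted p = 6.6e-08), lay between 1.52 and 1.98 under all alternatives run, leave-one-out fits included, and was called in each. Coding genes in its GC range had medians of -0.16 in KO and 0.08 in WT, of the opposite sign to ANXA2 in both lines. Those in its length class, over 2000 and up to 4000 bases, had medians of 0.01 in KO and -0.08 in WT, of the same sign as ANXA2. The part of GC and length in the ANXA2 changes was otherwise not tested. ANXA2 alone took 50.9% and 47.0% of the summed annexin CPM in KO recovery and 32.8% and 32.2% in KO heat shock, and 38.5% and 38.2% in WT recovery and 54.7% and 50.7% in WT heat shock.

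The ANXA2 gene lies on chr15:60347134-60402883, minus strand (GRCh38, GENCODE 29), and processed copies of its messenger RNA, which have no introns, sit elsewhere in the genome. The closest of them is ANXA2P2 on chr9:33624274-33625293, plus strand, whose 1020 aligned bases match the transcript ANXA2-201 at 1004 (98.4%), with 16 differences and an identical run of up to 221 bases. Of the 971 windows of 50 bases in ANXA2P2, one read length each, 59.4% also occur in another annotated gene, 575 of them in ANXA2. The stretch of 60 bases with the most differences, 5 of the 16, is where the gene and the copy are easiest to separate. It is printed with the differing bases in capitals:
ANXA2: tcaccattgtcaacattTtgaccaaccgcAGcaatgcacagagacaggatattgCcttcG
ANXA2P2: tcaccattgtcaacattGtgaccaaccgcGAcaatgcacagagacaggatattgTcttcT
Counted from the 5′ end of the stretch, with the base of ANXA2 first, the differences are T18G, A30G, G31A, C55T and G60T.

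ANXA2P2 had 10 and 10 counts in KO recovery, 13 and 29 in KO heat shock, 312 and 342 in WT recovery and 13 and 16 in WT heat shock. The WT recovery libraries stood apart from the other 6, at 18.9 and 20.3 CPM against at most 0.823 CPM elsewhere. Its log2 change was -0.69 ± 0.39 in KO (adjusted p = 0.165) and 4.71 ± 0.23 in WT (adjusted p = 3.1e-11), with a difference of -5.41 ± 0.47 (adjusted p = 3.2e-08). The value is uncertain because of the shared sequence. Over all 9227 processed pseudogenes in the tables, with no filter, the share of counts was 0.865% and 0.817% in KO recovery and 0.436% and 0.324% in KO heat shock, and 1.17% and 1.02% in WT recovery and 0.638% and 0.987% in WT heat shock. The WT recovery libraries were the highest of the 8 here too, but WT heat shock replicate 2 (0.987%) lay close to WT recovery replicate 2 (1.02%). In KO the share was higher in recovery than in heat shock, whereas ANXA2P2 was not. The part of this share in the ANXA2P2 value was not tested. Adding the reads of ANXA2P1, ANXA2P2 and ANXA2P3 to ANXA2 left its change in WT at -0.63 and its calls as they were.

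S100A10, the partner that ANXA2 binds in its heterotetramer, did not follow ANXA2 in WT cells. It had 132 and 126 CPM in KO recovery and 111 and 107 CPM in KO heat shock, and 127 and 114 CPM in WT recovery and 74.8 and 97.4 CPM in WT heat shock. Recovery libraries lay above heat shock libraries in both lines. The change was 0.24 ± 0.11 in KO (adjusted p = 0.0776) and 0.50 ± 0.11 in WT (adjusted p = 0.00104). The difference of -0.25 ± 0.15 was not called (adjusted p = 0.174), but was called with the GC and length offsets (-0.48, adjusted p = 0.0115). It was 0.0517 without WT recovery replicate 1 and -0.51 without WT recovery replicate 2. The KO change was called with no filter (0.27, adjusted p = 0.0351) and was -0.0748 with the offsets. In WT cells S100A10 thus rose where ANXA2 fell, although its call was lost when either WT recovery replicate 1 (0.21) or WT heat shock replicate 1 (0.20) was left out.

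**Figure D2:**
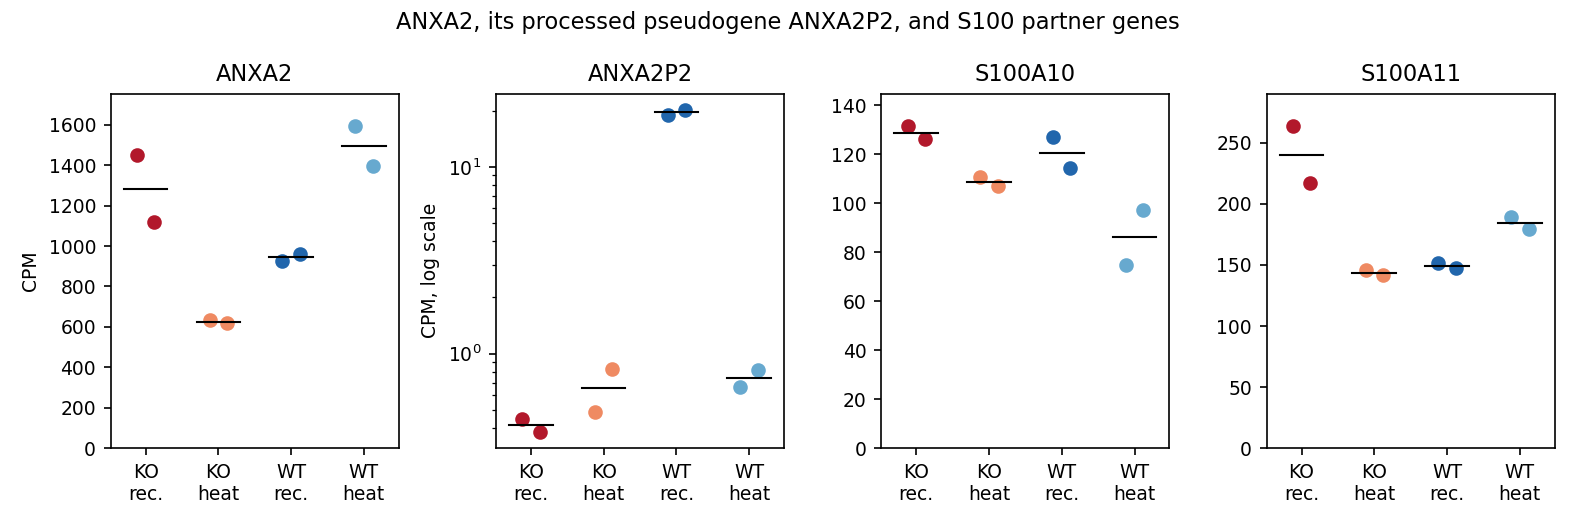
CPM of ANXA2, its processed copy ANXA2P2 (log axis), S100A10 and S100A11 in each of the 8 libraries (dots) with group means (bars). ANXA2P2 is at 18.9 and 20.3 CPM in WT recovery and under 1 CPM in the other 6 libraries, and S100A10 is higher in recovery than in heat shock in both lines.

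ANXA6, an annexin with a tandem copy of the core that links membranes to cholesterol transport and Ras signalling (chr5:151100712-151157882, minus strand, GRCh38), moved in the same directions as ANXA2. It had 147 and 121 CPM in KO recovery, against 91.5 and 92.4 CPM in KO heat shock. In WT cells it had 117 and 121 CPM in recovery, against 175 and 156 CPM in heat shock. The groups did not overlap in either line. The log2 change was 0.54 ± 0.10 in KO (adjusted p = 2.97e-04) and -0.47 ± 0.10 in WT (adjusted p = 7.2e-04), with a difference of 1.01 ± 0.14 (adjusted p = 8.1e-06). Coding genes as rich in GC as ANXA6 had medians of 0.22 in KO and -0.29 in WT, and after the GC and length offsets ANXA6 stood at 0.27 in KO (adjusted p = 0.0110), at -0.17 in WT, no longer called (adjusted p = 0.0755), and at 0.45 for the difference (adjusted p = 0.00253). Without KO recovery replicate 1 the change in KO was 0.41 (adjusted p = 0.0639), and without KO heat shock replicate 1 it was 0.39 (adjusted p = 0.100), both short of a call.

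ANXA1, which binds S100A11 and, outside the cell, formyl peptide receptors (chr9:73151757-73170393, plus strand, GRCh38), rose in WT cells. It had 291 and 264 CPM in KO recovery and 270 and 246 CPM in KO heat shock, which overlap. It had 473 and 517 CPM in WT recovery and 325 and 323 CPM in WT heat shock, which do not. The change was 0.10 ± 0.10 in KO (adjusted p = 0.410) and 0.61 ± 0.10 in WT (adjusted p = 4.0e-05), a 1.53-fold rise. The difference of -0.51 ± 0.14 was called (adjusted p = 0.00384) but was smaller in size than the median of -0.65 for coding genes under 0.42 GC, and was 0.04 after the GC and length offsets (adjusted p = 0.794), where ANXA1 rose in both lines, by 0.34 in KO (adjusted p = 0.00442) and by 0.30 in WT. It also fell short of a call without KO recovery replicate 1 (-0.48, adjusted p = 0.0554).

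ANXA3, ANXA4 and ANXA5 gave small values of opposite sign in the lines. ANXA4, which binds membranes in secretory epithelia, had 68.6 and 65.4 CPM in KO recovery and 72.5 and 72.4 CPM in KO heat shock, and 82.6 and 88.0 CPM in WT recovery and 71.2 and 74.5 CPM in WT heat shock. ANXA5 had 307 and 278 CPM in KO recovery and 336 and 342 CPM in KO heat shock, and 288 and 302 CPM in WT recovery and 242 and 274 CPM in WT heat shock. ANXA3 had 226 and 207 CPM in KO recovery and 235 and 233 CPM in KO heat shock, and 217 and 229 CPM in WT recovery and 181 and 201 CPM in WT heat shock. For each of the 3 genes recovery lay below heat shock in both KO libraries and above it in both WT libraries.

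Of these only the rise of ANXA4 in WT was called (0.23 ± 0.09, adjusted p = 0.0440), and that call was lost with DESeq2, with no filter and in each of the 8 leave-one-out fits, with adjusted p between 0.0914 and 0.169 in these 8. The other changes were -0.11 ± 0.09 in KO for ANXA4, -0.21 ± 0.10 in KO and 0.19 ± 0.10 in WT for ANXA5, and -0.11 ± 0.09 in KO and 0.22 ± 0.10 in WT for ANXA3, the last called when libraries were not blocked by pair (adjusted p = 0.0430). The differences of responses were called at -0.34 ± 0.13 for ANXA3 (adjusted p = 0.0398), -0.34 ± 0.13 for ANXA4 (adjusted p = 0.0292) and -0.41 ± 0.14 for ANXA5 (adjusted p = 0.0166). They did not hold after the GC and length offsets, where ANXA3 stood at 0.15 (adjusted p = 0.261) and ANXA5 at -0.21 (adjusted p = 0.124), and ANXA4 was called in the other direction at 0.30 (adjusted p = 0.0243). In KO recovery the offsets gave called values of 0.26 for ANXA4 (adjusted p = 0.0125) and -0.26 for ANXA5 (adjusted p = 0.0135). Leaving out single libraries ended the call of ANXA4 in all 8 fits and those of ANXA3 and ANXA5 in 6 of 8 each. Because of the pair block, leaving out either library of a pair gave nearly the same estimate, so the 8 fits are not 8 separate checks.

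ANXA7 and ANXA11 have long amino-terminal tails and are bound by the calcium sensor PDCD6, and ANXA11 also couples RNA granules to lysosomes. ANXA7 had 100.3 and 82.6 CPM in KO recovery and 81.7 and 94.8 CPM in KO heat shock, which overlap, and 90.5 and 92.9 CPM in WT recovery and 112 and 107 CPM in WT heat shock. ANXA11 had 172 and 163 CPM in KO recovery and 142 and 147 CPM in KO heat shock, and 201 and 199 CPM in WT recovery and 207 and 210 CPM in WT heat shock. Neither was called: ANXA7 changed by 0.05 ± 0.11 in KO (adjusted p = 0.755) and -0.26 ± 0.11 in WT (adjusted p = 0.0537), and ANXA11 by 0.21 ± 0.09 in KO (adjusted p = 0.0808) and -0.06 ± 0.09 in WT (adjusted p = 0.636). Without the pair block ANXA7 was called in WT (adjusted p = 0.0462), and ANXA11 in KO (adjusted p = 0.0412) and for the difference (0.27, adjusted p = 0.0495). After the GC and length offsets ANXA7 was called in WT (-0.44, adjusted p = 9.7e-04) and for the difference (0.62, adjusted p = 0.00103). In all, ANXA7 was called in 6 of 14 alternatives in WT and in 6 of 14 for the difference. ANXA11 was called in 5 of 14 in KO and in 2 of 14 for the difference. Reads of ANXA7 may include those of an antisense gene with 105 exon bases in common, since no source used here gives the strand setting of the counting.

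ANXA10, an annexin of stomach and gastric-type tumours that has lost most calcium-binding sites (chr4:168092515-168187690, plus strand, GRCh38), had 86.7 and 77.5 CPM in KO recovery and 69.1 and 71.1 CPM in KO heat shock. In WT cells it had 8.44 and 8.95 CPM in recovery and 6.60 and 7.43 CPM in heat shock. Recovery lay above heat shock in both lines, and the changes of 0.22 ± 0.09 in KO (adjusted p = 0.0581) and 0.31 ± 0.14 in WT (adjusted p = 0.0699) were not called, although the one in KO was called without the pair block (0.23, adjusted p = 0.0463). Their difference was -0.09 ± 0.17 (adjusted p = 0.684), and after the GC and length offsets it was 0.62 and called (adjusted p = 0.00213), as was the rise of 0.40 in KO (adjusted p = 5.8e-04). With these offsets the change in WT turned to -0.22, without a call (adjusted p = 0.166). The rise in KO was called in 6 of 14 alternatives.

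**Figure D3:**
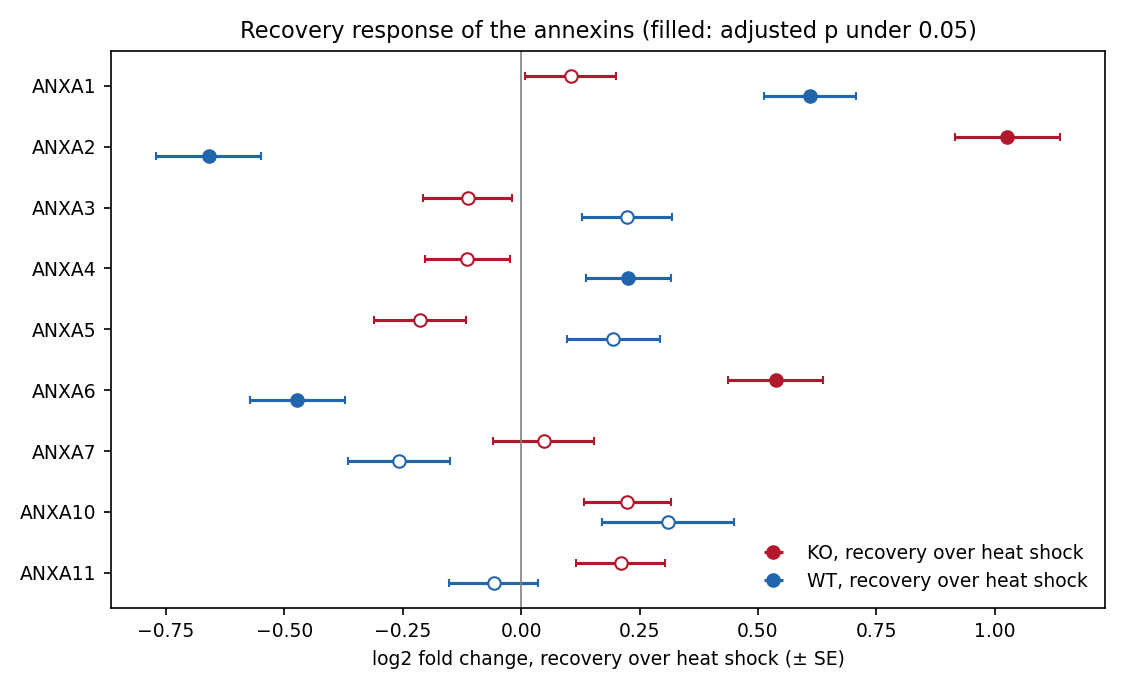
Log2 fold change of recovery over heat shock with its SE for the 9 tested annexins in KO (red) and WT (blue) cells, with filled symbols at an adjusted p under 0.05. ANXA2 is at 1.03 in KO and -0.66 in WT, ANXA6 at 0.54 in KO and -0.47 in WT, and the remaining changes lie between -0.26 and 0.31 apart from ANXA1 in WT at 0.61.

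The second question was how annexin transcripts differed between the lines at each time. At recovery 2 of 9 were higher in KO (ANXA2 and ANXA10) and 3 lower (ANXA1, ANXA4 and ANXA11), beside 31.8% and 31.3% of all genes. At heat shock 3 were higher in KO (ANXA3, ANXA5 and ANXA10) and 5 lower (ANXA1, ANXA2, ANXA6, ANXA7 and ANXA11), beside 27.4% and 28.2%. The median over the 9 was -0.01 at recovery and -0.31 at heat shock, against -0.01 and -0.03 over all genes tested. KO libraries lay wholly on one side of WT libraries for 6 of the 9 at recovery and 8 of the 9 at heat shock, beside 83.5% and 76.1% of all genes. Colon epithelium markers also differed between the lines: of the 10 tested, 2 were higher and 6 lower in KO at recovery, and 1 was higher and 6 lower at heat shock, and their part in the annexin differences was not tested. In such bulk samples fewer cells of a kind and less RNA per cell cannot be told apart.

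ANXA10 was the annexin with the largest difference between the lines. From the CPM above, every KO library was at least 69.1 CPM and no WT library was over 8.95 CPM, on raw counts of 1848 to 2504 in KO and 129 to 151 in WT. KO exceeded WT 9.43-fold at recovery (log2 3.24 ± 0.11, adjusted p = 4.1e-11) and 9.99-fold at heat shock (3.32 ± 0.11, adjusted p = 3.1e-11). Over the alternatives run, the log2 value lay between 3.07 and 3.63 at recovery and between 3.02 and 3.40 at heat shock, with a call in each. The medians of coding genes under 0.42 GC were -0.16 at recovery and 0.45 at heat shock. None of the 1763 windows of 50 bases in ANXA10 occurs in another annotated gene.

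ANXA1 was lower in KO at both times, by the CPM given above without overlap, at -0.84 ± 0.09 at recovery (adjusted p = 1.5e-06) and -0.33 ± 0.09 at heat shock (adjusted p = 0.00509). ANXA11 was lower in KO at both times too, at -0.26 ± 0.08 (adjusted p = 0.00960) and -0.53 ± 0.08 (adjusted p = 5.3e-05). The ANXA1 call at heat shock was lost without KO heat shock replicate 2 (-0.27, adjusted p = 0.0800), and the ANXA11 call at recovery with no filter (adjusted p = 0.159), without KO recovery replicate 2 (-0.21, adjusted p = 0.0831) and without the first of the WT recovery replicates (-0.25, adjusted p = 0.0662).

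ANXA2 was higher in KO at recovery (0.44 ± 0.11, adjusted p = 0.00272) and lower in KO at heat shock (-1.26 ± 0.11, adjusted p = 5.2e-07), and both calls held in all alternatives run. Without KO recovery replicate 1, the higher of the pair, the value at recovery was 0.25 (adjusted p = 0.0465). ANXA6 was lower in KO at heat shock (-0.85 ± 0.10, adjusted p = 6.0e-06), and at recovery its value of 0.17 ± 0.10 was not called (adjusted p = 0.143) but was called with no filter (0.26, adjusted p = 0.0183) and without KO recovery replicate 2 (0.32, adjusted p = 0.0217). Adding the reads of its 3 copies to ANXA2 gave 0.41 in place of 0.44 at recovery.

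The other annexins were called at only one time. ANXA5 was higher in KO at heat shock (0.39 ± 0.09, adjusted p = 0.00161) and stood at -0.01 ± 0.09 at recovery (adjusted p = 0.906), where the offsets gave 0.16 (adjusted p = 0.0489). ANXA3 was higher in KO at heat shock (0.29 ± 0.09, adjusted p = 0.00936), a call lost without KO heat shock replicate 1 or 2 or WT heat shock replicate 1, with -0.04 ± 0.09 at recovery (adjusted p = 0.707), and after the GC and length offsets it stood at -0.11 at heat shock (adjusted p = 0.193). ANXA7 was lower in KO at heat shock (-0.31 ± 0.10, adjusted p = 0.0162), a call lost without KO heat shock replicate 1 (-0.21, adjusted p = 0.188), and was at -0.00 ± 0.10 at recovery (adjusted p = 0.976). ANXA4 was lower in KO at recovery (-0.35 ± 0.08, adjusted p = 0.00157) and at -0.01 ± 0.08 at heat shock (adjusted p = 0.939), where the GC and length offsets gave -0.50 (adjusted p = 2.3e-05).

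**Figure D4:**
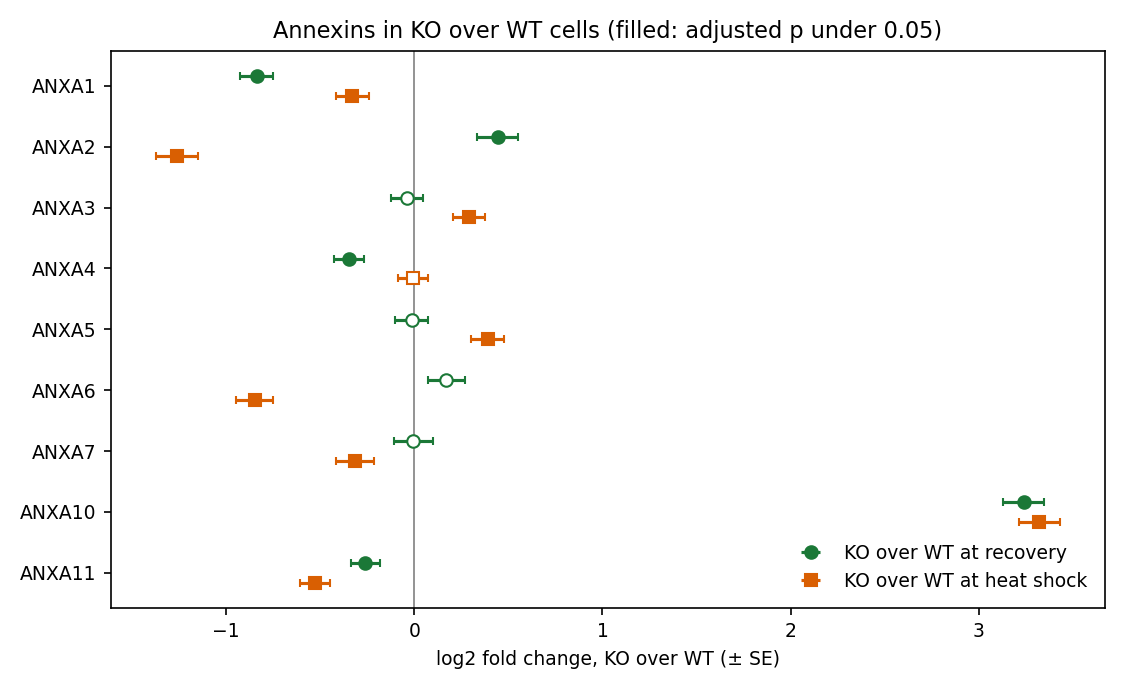
Log2 fold change of KO over WT with its SE for the 9 tested annexins at recovery (circles) and at heat shock (squares), with filled symbols at an adjusted p under 0.05. ANXA10 stands at 3.24 and 3.32, while the other 8 lie between -1.26 and 0.44, and ANXA2 is on opposite sides of 0 at the 2 times.

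The promoters of the genes with the clearest changes are shown to set ANXA10 beside ANXA2 and ANXA6, which moved together. RefSeq promoter windows of 300 bases, 250 before and 50 after a start (GRCh38.p14), were found for 9 of the 10 genes, as 13 windows. The 250 bases before the start of ANXA10 (chr4:168092287-168092536, plus strand), ANXA2 (chr15:60397987-60398236, minus strand) and ANXA6 (chr5:151157780-151158029, minus strand) are printed 5′ to 3′ with matches to the 5 motifs searched in capitals:
ANXA10: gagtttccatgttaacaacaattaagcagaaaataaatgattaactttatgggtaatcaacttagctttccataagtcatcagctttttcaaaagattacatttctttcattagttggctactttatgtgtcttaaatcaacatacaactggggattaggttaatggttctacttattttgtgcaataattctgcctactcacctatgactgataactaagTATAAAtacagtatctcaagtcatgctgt
ANXA2: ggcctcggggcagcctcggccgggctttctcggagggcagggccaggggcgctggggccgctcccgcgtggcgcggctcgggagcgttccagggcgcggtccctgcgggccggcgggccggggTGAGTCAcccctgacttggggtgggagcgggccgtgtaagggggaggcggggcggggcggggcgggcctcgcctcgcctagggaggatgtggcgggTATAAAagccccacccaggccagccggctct
ANXA6: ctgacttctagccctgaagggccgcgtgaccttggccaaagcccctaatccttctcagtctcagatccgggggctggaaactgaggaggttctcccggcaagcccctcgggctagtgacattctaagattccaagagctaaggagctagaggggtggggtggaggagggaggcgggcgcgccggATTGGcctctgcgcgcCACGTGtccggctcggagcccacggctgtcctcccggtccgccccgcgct

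The motifs were GAANNTTC (paired half-sites of the heat shock element), CACGTG (E-box), TGANTCA (AP-1), CCAAT and TATAAA, searched on both strands, and they occur in 6.77%, 7.26%, 7.71%, 34.6% and 11.5% of 35116 promoter windows. GAANNTTC was in none of the 13 annexin windows, which says only that these letters are not in these windows. TATAAA was in a window of 4 genes, at -29 in ANXA10, -31 in ANXA2 and -31 in ANXA1 relative to the start, and at -61 in ANXA11. TGANTCA was in ANXA2 alone, at -127, and CACGTG in ANXA6 at -50 and ANXA4 at -216. The ANXA10 window has 32.7% GC and 0 CG pairs, and 2.59% of all windows are as low or lower in GC, against a median of 58.7% and 14 CG pairs. The ANXA2 window has 76.0% GC with 32 CG pairs, and the ANXA6 window shown above 66.3% with 25. A further ANXA6 window (chr5:151141635-151141934) has 56.3% GC with 10 CG pairs and no match to the motifs. The ANXA1 window, like that of ANXA10, has 0 CG pairs, at 37.7% GC.

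Of a list of 20 S100 and EF-hand genes, only some of which encode proteins known to bind annexins, 15 were tested. In KO recovery 9 rose and 0 fell, beside 20.6% and 21.1% of all genes, led by S100A2 (2.04 ± 0.15, adjusted p = 6.3e-09), S100A13 (1.12 ± 0.10, adjusted p = 6.2e-08), the ANXA1 partner S100A11 (0.74 ± 0.10, adjusted p = 8.9e-06) and S100A6, which binds several annexins (0.79 ± 0.11, adjusted p = 1.0e-05). In WT recovery 4 rose, S100A14, S100A6, S100A10 and S100A4, at 0.45 to 0.63, and 6 fell, among them PEF1, the dimer partner of PDCD6 (-0.97 ± 0.10, adjusted p = 5.5e-07), and S100A11 (-0.30 ± 0.10, adjusted p = 0.0153). Over all genes 24.8% rose and 26.0% fell in WT. The S100A4 rise in WT (0.45) was at 0.19 with the GC and length offsets (adjusted p = 0.229), 0.0738 without WT recovery replicate 1 (adjusted p = 0.701) and 0.0677 without WT heat shock replicate 1 (adjusted p = 0.725), none of them called. The fall of S100A11 in WT was not called with upper-quartile scaling (-0.21, adjusted p = 0.0809). The median of the list was 0.49 in KO and 0.01 in WT. Coding genes with transcripts of up to 1000 bases, the class of S100A2, S100A4, S100A6 and S100A11, had medians of 0.51 in KO and -0.23 in WT. With the offsets the rises in KO were 0.37 for S100A11 and 0.34 for S100A6.

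S100A11 had 264 and 217 CPM in KO recovery against 146 and 142 CPM in KO heat shock, and 152 and 147 CPM in WT recovery against 189 and 179 CPM in WT heat shock. Its groups did not overlap in either line, and its directions were those of ANXA2 and ANXA6, while ANXA1 took the other direction in WT. The difference of responses was called higher for 7 of 15 genes, led by S100A2 (2.64 ± 0.21), PEF1 (1.45 ± 0.14), S100A13 (1.40 ± 0.14) and S100A11 (1.04 ± 0.14), and lower for S100A14 (-0.53 ± 0.14), with adjusted p from 1.1e-08 to 0.00256 for these 5, beside 28.5% higher and 27.8% lower over all genes. The S100A14 difference was not called without KO recovery replicate 1 (-0.45, adjusted p = 0.0592).

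Between the lines, 7 of the 15 were higher and 6 lower in KO at recovery, beside 31.8% and 31.3% of all genes. At heat shock 1 was higher and 9 lower, beside 27.4% and 28.2%. S100A14 averaged 27.1 ± 1.61 CPM in KO recovery and 150 ± 2.01 CPM in WT recovery (SD, n = 2 each), a log2 value of -2.47 ± 0.09 (adjusted p = 1.0e-10), and was at -1.94 ± 0.09 at heat shock. S100A6 was at -1.23 ± 0.10 at recovery and -1.39 ± 0.10 at heat shock, and S100A4 at -1.46 ± 0.14 and -1.69 ± 0.15. S100A2 was lower in KO at heat shock (-2.08 ± 0.15), and PEF1 was higher in KO at recovery (1.32 ± 0.10). S100A10 was the one gene of the list called higher in KO at heat shock (0.34 ± 0.11, adjusted p = 0.0156), and it stood at 0.09 ± 0.11 at recovery (adjusted p = 0.461). That call was lost without KO heat shock replicate 1 (0.31, adjusted p = 0.0850), KO heat shock replicate 2 (0.36, adjusted p = 0.0504) and WT heat shock replicate 1 (0.12, adjusted p = 0.259). The value was 0.53 without WT heat shock replicate 2.

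Of 14 genes of surface proteolysis and annexin receptors, 10 were tested. PLG, the plasminogen gene, and the formyl peptide receptor gene FPR3 had no read. FPR2, a receptor for ANXA1, averaged at most 0.0304 CPM in any group, and FPR1 at most 0.241 CPM. In KO recovery PLAUR, the urokinase receptor (0.87 ± 0.10), PLAU, urokinase itself (0.59 ± 0.10), and ENO1, an enolase that also binds plasminogen (0.34), rose. PLGRKT, a plasminogen receptor, fell (-0.49 ± 0.14). In WT recovery EGFR (0.54 ± 0.09), SERPINE2 (0.53), PLAUR (0.52 ± 0.10) and CD44 (0.26) rose, while ENO1 (-0.44 ± 0.10) and PLAU (-0.26 ± 0.10) fell. The difference of responses was higher for PLAU (0.85 ± 0.14, adjusted p = 4.2e-05), ENO1 (0.78) and PLAUR (0.35), and lower for EGFR (-0.72 ± 0.13, adjusted p = 1.3e-04) and SERPINE2 (-0.64). The counts stood at 4 higher and 1 lower in KO, 5 and 2 in WT, and 3 and 2 for the difference, beside 20.6% and 21.1%, 24.8% and 26.0%, and 28.5% and 27.8% of all genes.

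Several of these smaller calls did not hold. In KO recovery the calls of ENO1 and PLGRKT were lost when any 1 of the 4 KO libraries was left out (ENO1 0.29 to 0.39, PLGRKT -0.52 to -0.46). ENO1 also lost its call with the GC and length offsets (0.15, adjusted p = 0.160) and PLGRKT with DESeq2 (adjusted p = 0.0967). In WT recovery CD44 lost its call in 8 of 14 alternatives, 6 of them single libraries left out (all but WT recovery replicate 1 and WT heat shock replicate 1), with 0.16 under the offsets. PLAU lost its call in WT in 7 of 14, among them upper-quartile scaling (-0.17), DESeq2 (-0.25), the offsets (-0.00867), either KO heat shock library, WT recovery replicate 1 (-0.14) and WT heat shock replicate 1 (-0.15) left out. It stood at -0.40 without WT recovery replicate 2 and at -0.41 without WT heat shock replicate 2. The difference for PLAUR was lost in 9 of 14, among them upper-quartile scaling (0.25), DESeq2, the offsets (0.0101), each KO library, WT recovery replicate 1 (0.22) and WT heat shock replicate 1 (0.23) left out. The difference for SERPINE2 was lost with the offsets (-0.0929, adjusted p = 0.512).

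PLAU had 37.1 and 36.4 CPM in KO recovery against 75.2 and 81.0 CPM in WT recovery, and 24.4 CPM in both KO heat shock libraries against 99.995 and 87.8 CPM in WT heat shock. It was lower in KO without overlap at both times, at -1.09 ± 0.09 (adjusted p = 1.4e-07) and -1.94 ± 0.09 (adjusted p = 1.3e-09). In all, 3 of the 10 were higher in KO at recovery (ENO1 at 0.62 ± 0.08, PLAUR at 0.44 and PLAT at 0.46) and 6 lower, beside 31.8% and 31.3% of all genes. At heat shock 3 were higher (EGFR at 0.39, PLGRKT at 0.63 and SERPINE2 at 0.33) and 4 lower, among them CTSB (-0.73 ± 0.09) and CD44 (-0.45), beside 27.4% and 28.2%. PLAT lost its call with upper-quartile scaling (0.30, adjusted p = 0.0974), without KO recovery replicate 2 (0.40, adjusted p = 0.0777) and without WT recovery replicate 1 (0.31, adjusted p = 0.171), and SERPINE2 lost its call at heat shock with the offsets (-0.0538, adjusted p = 0.556).

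All 27 genes of plasma membrane repair and ESCRT-III, the polymer that pinches off damaged membrane, were tested. In KO recovery 5 rose, CHMP1A (0.60 ± 0.10), the calpain subunit gene CAPNS1 (0.53 ± 0.11), CHMP2A, CHMP4A and the caveolar coat gene PTRF, the last at 0.27, and 4 fell, CHMP2B (-0.79 ± 0.10), PDCD6IP (-0.33), VPS4B (-0.29) and VTA1 (-0.29). These 5 and 4 of 27 are 18.5% and 14.8%, beside 20.6% and 21.1% of all genes. With the GC and length offsets CAPNS1 (0.17), CHMP2A (0.0839), CHMP4A (0.13) and PTRF (0.0232) were not called. Under the same offsets PDCD6IP (0.0434), VPS4B (0.0174) and VTA1 (0.12) turned sign without a call, and CHMP1A (0.26) and CHMP2B (-0.49) stayed called. CHMP2A, CHMP4A, PTRF, PDCD6IP, VPS4B and VTA1 also lost their calls when any 1 of the 4 KO libraries was left out. CAPNS1 did so without KO recovery replicate 1 (0.37) or KO heat shock replicate 1 (0.34), and CHMP4A and PTRF did so with DESeq2. In WT recovery 6 rose and 10 fell, beside 24.8% and 26.0% of all genes, and the ESCRT-III subunit genes CHMP2B (0.79 ± 0.11, adjusted p = 9.6e-06) and CHMP1A (-1.14 ± 0.10, adjusted p = 9.0e-08) changed opposite to their direction in KO, as did PTRF (-0.82 ± 0.10). The difference of responses was 1.74 ± 0.15 for CHMP1A (adjusted p = 2.1e-08) and -1.57 ± 0.15 for CHMP2B (adjusted p = 9.9e-08), with 10 genes higher and 7 lower, beside 28.5% and 27.8% of all genes. With the offsets these differences were 1.05 and -0.93, both still called.

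Between the lines, 10 repair genes were higher and 9 lower in KO at recovery, beside 31.8% and 31.3% of all genes. At heat shock 6 were higher and 11 lower, beside 27.4% and 28.2%. AHNAK, a large scaffold that ANXA2 and S100A10 bring to the membrane, averaged 172 ± 14.03 CPM in KO recovery and 485 ± 15.2 CPM in WT recovery, and 160.4 ± 16.2 CPM in KO heat shock and 332 ± 1.11 CPM in WT heat shock (SD, n = 2 each). It was lower in KO by log2 values of -1.50 ± 0.09 (adjusted p = 9.1e-09) and -1.05 ± 0.09 (adjusted p = 4.9e-07). The caveolin gene CAV1 was lower in KO as well (-1.26 ± 0.10 at recovery and -1.45 ± 0.10 at heat shock), and so was TRIM72, which gathers vesicles at tears, at heat shock (-1.83 ± 0.14). CHMP2B was higher in KO at heat shock (1.09 ± 0.11).

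Of 36 other genes for calcium-dependent phospholipid binding proteins (copines, synaptotagmins and their relatives), 24 were tested. In KO recovery 7 rose and 6 fell, beside 20.6% and 21.1% of all genes. Among those that fell was SYTL2, a Rab27 effector of granule docking (-0.52 ± 0.09, adjusted p = 1.3e-04, and -0.25 with the offsets). SYT13 (-1.05 ± 0.24), CPNE3 (-0.40 ± 0.09) and PLA2G4A (-0.53 ± 0.13) fell too. In WT recovery 5 rose, SYT1 (1.31 ± 0.09, adjusted p = 3.6e-09), CPNE8 (0.92 ± 0.12), CPNE3 (0.48), ESYT2 (0.39) and PLA2G4A (0.38), and 8 fell, among them SYTL3 (-0.81 ± 0.10), beside 24.8% and 26.0%. CPNE3 and PLA2G4A thus took opposite directions in the lines. PLA2G4A lost its call in WT with no filter (0.33), DESeq2 (0.40, adjusted p = 0.145), the offsets (0.13, adjusted p = 0.378) and without WT recovery replicate 1 (0.29) or WT heat shock replicate 1 (0.28). The difference of responses was called higher for 7 and lower for 7, beside 28.5% and 27.8% of all genes. It was -1.53 ± 0.13 for SYT1, -1.28 ± 0.16 for CPNE8, -0.88 ± 0.13 for CPNE3 and 1.06 ± 0.14 for SYTL3. Alternatives are not given for the differences of CPNE8, CPNE3 and SYTL3, nor for SYT13, CPNE3 and PLA2G4A in KO recovery. Between the lines 7 were higher and 10 lower in KO at recovery, beside 31.8% and 31.3%. At heat shock 4 were higher (SYTL2, CPNE8, ESYT2 and SYTL3) and 11 lower, beside 27.4% and 28.2%. SYTL2 averaged 68.7 ± 4.49 CPM in KO recovery and 12.8 ± 0.544 CPM in WT recovery, and 98.7 ± 0.266 CPM in KO heat shock and 13.4 ± 0.925 CPM in WT heat shock (SD, n = 2 each), at log2 values of 2.42 ± 0.10 (adjusted p = 2.1e-10) and 2.88 ± 0.10 (adjusted p = 3.7e-11). SYT1 was lower in KO at recovery (-1.88 ± 0.08, adjusted p = 4.1e-10).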

How the data were processed

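The authors deposited 4 comparison tables, 1 per line and replicate, each with read counts per Ensembl gene for a recovery and a heat shock library and a log2 fold change relative to column totals, per the file headers. The deposited counts were whole and unnormalized, and NA was read as 0. The recovery column was identified from the sample order in each comparison's name, which the sign of the authors' log2 values matched. An error there would turn the sign of all recovery results. CASAVA, TopHat and hg19 are listed in the submitters' processing notes, and no source used here gives the counting program, its strand setting, or which libraries were poly-A selected or depleted of ribosomal RNA.

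Genes were filtered with filterByExpr, scaled by TMM and fitted over all 8 libraries in edgeR 4.0.16 (R 4.3.3), with quasi-likelihood F tests and a common estimate of the spread. Recovery was set against heat shock with the line and replicate pair as a block, and the interaction gave the difference of responses. The pairing rests on the design text, which calls the pairs matched. In the data same-numbered libraries did not deviate together across genes (r = -0.0122 in KO and -0.0152 in WT). KO was set against WT without a block. SE is the log2 change over the square root of F. Replicates correlated at r = 0.989 to 0.993 and differed by more than sampling noise (chi-square per degree of freedom 2.46 to 18.8). The fit was tested on simulated data that held no pair effect and no GC or length trend, so that test does not cover these. Lengths, GC, coordinates and overlaps came from GENCODE 29 (GRCh38), which matched 88.8% of the deposited genes.

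Alternatives were DESeq2 size factors, upper-quartile scaling, no filter, DESeq2 1.42.0, GC and length offsets, the other block setting, ANXA2 summed with its copies, longest transcript lengths and leaving out each library. In the recovery comparisons a library left without its mate adds nothing to the response of its line, which then rests on the other pair. Leaving out either mate is thus nearly the same fit, and counts of such fits are not counts of separate checks. The annexins and gene lists were chosen with earlier results of these data known. All 10 annexins, FBXW7 and the ANXA2 copies were named. Partner genes were picked as up to 4 called genes per list and comparison by lowest p and those of a direction with 5 or fewer. Not every result picked this way is given, and CHMP1B, SYT12 and SYTL1 are among those left out. S100A10, S100A11 and other values outside that rule were chosen after they were seen. Protein sequence features were planned and not analysed here. One gene of the surface proteolysis list is not reported here. Floors cover counting error only, and totals of 15507896 to 34387618 counts limit mainly the lowest genes.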

Additional observations from a re-analysis of the deposited data

Results flagged for a closer look

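The recovery response differed between the lines, by the interaction term of edgeR's quasi-likelihood test, for 6 annexins and 1 pseudogene. KO minus WT was 1.69 for ANXA2 (adjusted p = 6.6e-08) and 1.01 for ANXA6 (adjusted p = 8.1e-06). It was -0.51 for ANXA1 (adjusted p = 0.00384), -0.34 for ANXA3 (adjusted p = 0.0398), -0.34 for ANXA4 (adjusted p = 0.0292) and -0.41 for ANXA5 (adjusted p = 0.0166), in the direction of the median of -0.65 of coding genes under 0.42 GC and of -0.22 of those from 0.42 to 0.47. It was -5.41 for ANXA2P2 (adjusted p = 3.2e-08), whose reads share sequence with ANXA2. Over all genes 28.5% were called higher and 27.8% lower for this difference. With the GC and length offsets the differences of ANXA2 and ANXA6 stayed called. Those of ANXA1, ANXA3 and ANXA5 were not called, and that of ANXA4 was called in the other direction (0.30, adjusted p = 0.0243).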

How the results depend on the processing

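Calls of ANXA2 in all 5 comparisons and of ANXA10 between the lines held in all alternatives run. Of the counts of annexins called, those in KO over WT stayed within 1.5 times. In KO recovery, 2 called higher became 5 with GC and length offsets, 4 without the replicate block (ANXA10 and ANXA11 added) and 1 to 4 leaving out single libraries, and 0 called lower became 1 with the offsets and 0 to 1 leaving out libraries. In WT recovery, 2 called higher became 5 with upper-quartile scaling, 1 with no filter, 1 with DESeq2, 1 with the offsets and 1 in each leave-one-out fit. For the difference, 2 called higher became 5 with the offsets, and 4 called lower became 1 with no filter, 0 with the offsets and 0 to 3 leaving out libraries. The cause of these moves was not tested. The replicate block, when added to KO over WT, changed no call of an annexin (ANXA2 at recovery 0.43), and without it in the recovery comparisons ANXA3 (0.22) and ANXA7 (-0.26) were also called in WT, and ANXA11 (0.27) for the difference.

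Signs turned as follows, the cause not tested. With GC and length offsets, ANXA3 was 0.15, ANXA4 0.26, S100A10 -0.0748, PDCD6IP 0.0434, VPS4B 0.0174 and VTA1 0.12 in KO recovery, ANXA3 -0.00300, ANXA4 -0.0471, ANXA5 -0.0544, ANXA10 -0.22 and ANXA11 0.16 in WT recovery, ANXA1 0.0431, ANXA3 0.15, ANXA4 0.30 and ANXA10 0.62 for the difference, ANXA3 -0.11 and SERPINE2 -0.0538 in KO over WT at heat shock, and ANXA3 0.0444, ANXA5 0.16, ANXA6 -0.11 and ANXA7 0.0686 in KO over WT at recovery. With upper-quartile scaling ANXA11 was 0.0357 in WT recovery and S100A10 -0.0719 in KO over WT at recovery. In KO over WT at heat shock ANXA4 was 0.00766 with DESeq2 size factors, 0.0100 with no filter and 0.00766 with DESeq2, and with no filter at recovery ANXA3 was 0.0499, ANXA5 0.0766 and ANXA7 0.0859. Leaving out single libraries gave ranges that cross 0: ANXA7 -0.20 to 0.30 in KO recovery; ANXA10 -0.19 to 0.0220 and S100A10 -0.51 to 0.0581 for the difference; ANXA4 -0.0819 to 0.0105 and ANXA2P2 -0.61 to 0.15 at heat shock; ANXA3 -0.10 to 0.0300, ANXA5 -0.0807 to 0.0634 and ANXA7 -0.15 to 0.14 at recovery.

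Per longest transcript, mean levels in CPM per kb were 153 for ANXA1, 308 for ANXA2, 73.8 for ANXA3, 16.8 for ANXA4, 168 for ANXA5, 49.2 for ANXA6, 38.8 for ANXA7, 29.6 for ANXA10 and 25.8 for ANXA11. Upper-quartile scaling moved the median of all genes to 0.10 in WT recovery, -0.14 for the difference and -0.18 in KO over WT at recovery, where 38.1% of calls were then higher against 50.4%, and 59.0% against 48.8% in WT recovery. DESeq2 called 2381 genes higher and 2408 lower in KO recovery, against 3601 and 3694 with edgeR. Without KO heat shock replicate 1 edgeR called 1520 and 1318, and without KO recovery replicate 1 it called 1846 and 1399. With 2 libraries a group, small changes cannot be told from the spread.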
